A study of Homo sapiens with 2 samples.

Results

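Nucleolar ribosome biogenesis factors are the proteins that transcribe, modify, cut and fold ribosomal RNA and load it with ribosomal proteins. A set of 40 such genes was followed in HT-29 cells, an established human colorectal adenocarcinoma line, grown as spheroids or as monolayer. The genes were listed by their known function and not by their values, though earlier results of these data were known. Of the 40 genes 36 had at least 1 probe set assigned to them alone, among 19775 genes with such a probe set. The spheroids (1 array) were harvested on day 5 of culture in low-adhesion plates in stem cell media with B27, fibroblast growth factor and epidermal growth factors. The monolayer cells (1 array) were kept in the same basal medium with fetal bovine serum on treated plates, so growth form cannot be told apart from medium. The study uses the spheroids as a culture enriched in cancer stem cells (CSCs). Only 1 array of each culture was analysed, which leaves the differences without a measure of replicate error, so they are given as a description with no p-value.

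Ribosomes are built in the nucleolus. RNA polymerase I transcribes a long precursor from the ribosomal DNA repeats, small nucleolar RNA-protein particles (snoRNPs) guide its methylation and pseudouridylation, and large assemblies cut it and fold it into the small and the large ribosomal subunit. Growth signals through mTOR and the transcription factor MYC raise this output in proliferating cells, and large nucleoli have long been used as a sign of rapid growth in tumors.

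The signal of a probe set is an intensity on a linear scale, computed by the authors with the MAS5 method and scaled so that the trimmed mean was 500.1 on both arrays. Signals below 62.7, the 50th percentile over both arrays, were raised to that floor before log2 was taken, and each gene was read from its brightest probe set by mean log2 over both arrays. The 13261 genes that exceeded the floor on 1 or both arrays are called measured. The log2 differences of several probe sets of 1 gene spread by an SD of 0.41 over 5506 genes. This spread serves as a yardstick below, but it measures no error between cultures or between arrays. Of 11 colon epithelium markers 8 were above the floor in spheroids and 6 in monolayer, with summed signals of 58335 and 64228, but CDX1 and LGALS4, which are defining markers, were under it on both arrays. Of 6 fibroblast markers 1 was above the floor in spheroids and 2 in monolayer (summed signals 2174 and 1547), of 4 leukocyte markers with a probe set 0 and 1 (65.9 and 177.0) and of 4 endothelium markers 1 and 1 (142.8 and 241.6). PTPRC, CD3E, CD14, DCN, LUM, COL3A1, PDGFRB, VWF, CDH5 and KDR were under the floor on both arrays. The part of other cell types in the values below was not tested.

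The nucleolar factors had similar signals in HT-29 spheroids and monolayer. Of the 36 measured members 0 were at least 2-fold higher in spheroids and 0 were 2-fold lower or more, where 2.53% and 3.14% of all measured genes were. With so few genes past 2-fold in general, a count of 0 does not set the members apart. The median log2 difference was 0.04 over the members and -0.05 over all measured genes. A difference above 0 was seen in 21 members and one under 0 in 15, while 45.1% of all measured genes were above 0. Under scaling of both arrays to the same median signal the members' median was -0.038 and 16 were above 0, so the sign of this small shift depends on the scale. At a lower threshold of 1.5-fold 2 members were higher, POLR1A and NOP58, and 1 was lower, NPM3, against 9.6% and 11.7% of all measured genes, so neither count exceeds the background. Of the 36 members 29, or 80.6%, lay within the 0.41 between probe sets of a gene, compared to 64.0% of all measured genes. Among 8678 genes at least as bright as the dimmest member, a set chosen after the values were seen, 69.1% lay within it and 44.1% were above 0. Of these bright genes 1.64% were 2-fold higher and 1.72% 2-fold lower, and at 1.5-fold the shares were 7.92% and 8.94%. These are bulk RNA signals on a common scale, so fewer cells of a type and less RNA per cell cannot be told apart.

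Many of the members' promoters hold an E-box, a sequence feature that the list did not use, and copies are shown here because they sit at members with differences under and above 0. RefSeq promoters of build GRCh38.p14, from 250 bases before to 50 after a gene's annotated start, were matched for 35 of the 40 members. The E-box CACGTG, the core letters of a site that MYC with its partner MAX is known to bind, is the same on both strands. It was found in 16 of the 35 members, or 45.7%, in 12.4% of 10708 measured genes with a promoter, and in 8.77% of all 27305 genes in the table. The 3 members with an E-box and the lowest differences and the 3 with the highest follow, with NOP10, which had no difference. The 3 lowest, PNO1, UTP18 and GAR1 at -0.31, -0.25 and -0.14, lay within the 0.41 between probe sets. Each of these 3 changed sign under at least 1 other processing setting. The E-box is in capitals, sequences run 5′ to 3′ along the gene, and for UTP18 and NOP10, which have another copy farther upstream, the copy near the start is shown.
PNO1, chr2:68157885-68157914, plus strand: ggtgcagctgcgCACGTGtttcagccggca
UTP18, chr17:51260538-51260567, plus strand: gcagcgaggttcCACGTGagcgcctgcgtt
GAR1, chr4:109815781-109815810, plus strand: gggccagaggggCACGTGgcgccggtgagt
NOP10, chr15:34343130-34343159, minus strand: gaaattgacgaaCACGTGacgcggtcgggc
BYSL, chr6:41921515-41921544, plus strand: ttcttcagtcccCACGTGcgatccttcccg
WDR43, chr2:28894658-28894687, plus strand: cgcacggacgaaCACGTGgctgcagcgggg
UTP20, chr12:101280083-101280112, plus strand: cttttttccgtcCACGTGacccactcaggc
The 18 copies in the members clustered at the start of the gene. Of these 15, or 83.3%, began within 40 bases of the annotated start, compared to 29.2% of 1615 copies in the promoters of measured genes. The farthest of the 15 began 36 bases from the start and the next copy 89 bases away. Limits other than 40 were not tried. Members with and without an E-box had similar differences. The median log2 difference was 0.05 over 15 measured members with an E-box, from -0.31 for PNO1 to 0.52 for UTP20, and 0.07 over 17 without one, which hold both ends of the list, NPM3 and POLR1A. In the other lists of ribosome biogenesis genes described below 27 of 102, or 26.5%, had an E-box, and of the cytosolic ribosomal proteins 4 of 52, or 7.69%. The letters CGGAAG, part of the site of ETS factors, on either strand, were in 18 of the 35 members (51.4%) and in 36.4% of measured genes. The shares were higher in the other ribosome biogenesis lists, 63.7%, and in the cytosolic ribosomal proteins, 65.4%. A match of letters is a description and shows no binding.

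**Figure D1:**
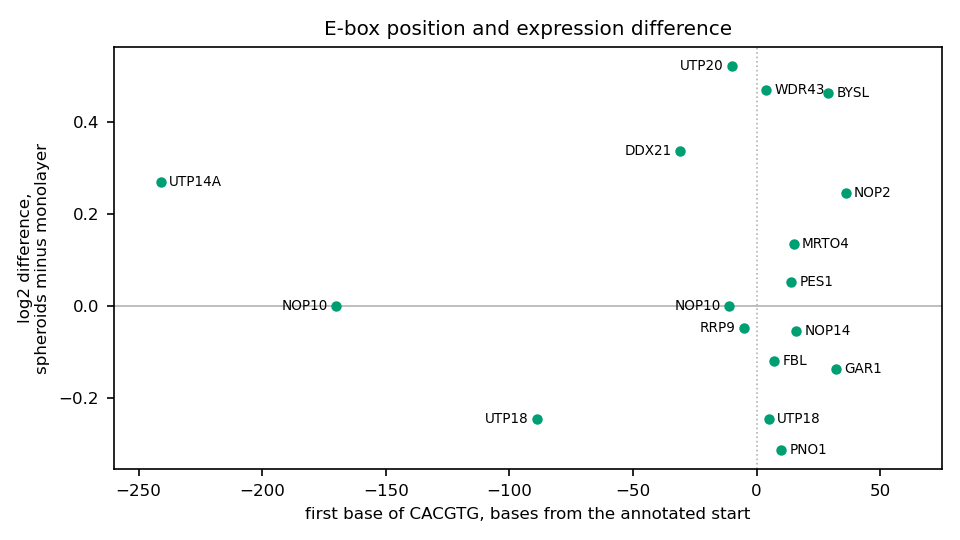
Log2 difference in signal between HT-29 spheroids and monolayer (vertical axis) against the position of each CACGTG in the promoter, in bases from the annotated start (horizontal axis), for 15 measured members, of which NOP10 and UTP18 have 2 copies each. Most points lie close to the start, and there they span the range from -0.31 (PNO1) to 0.52 (UTP20).

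Among the factors of RNA polymerase I transcription 4 of 5 were above 0, where 45.1% of all measured genes were. The median log2 difference was 0.10, or 0.03 with median scaling, and all but POLR1A lay within the 0.41 between probe sets. POLR1A, the largest subunit of the enzyme, had a signal of 368.9 in spheroids and 220.3 in monolayer, a 1.67-fold and the largest upward difference of the list. Its other 2 probe sets were at 0.09 and -0.23, so that the median of its probe sets was 0.09. POLR1B, the other large subunit, was at -0.01 and its 3 further probe sets ran from -0.21 to 0.34. POLR1C, a subunit shared with RNA polymerase III, was at 0.10. RRN3, which brings the polymerase to the ribosomal DNA promoter and is a known point of control by mTOR, was at 0.26, and the factor UBTF, which keeps ribosomal DNA open, at 0.09. The 2 dimmest probe sets of UBTF above the floor disagreed, at 0.63 and -0.71.

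The snoRNP proteins did not move one way, with 3 of 7 measured members above 0 and a median log2 difference of -0.05, or 0.20 relative to the hybridisation spike-ins. Box C/D particles methylate ribosomal RNA. NOP58, a core protein of these particles, had a signal of 8226 in spheroids and 5288 in monolayer, 1.56-fold higher, by its only probe set. Its partner FBL, the methyltransferase fibrillarin, was at -0.12, and RRP9, a protein of the U3 particle, at -0.05. Box H/ACA particles make pseudouridine. NHP2, a core protein of that class, had a signal of 9459 in spheroids and 12645 in monolayer, 1.34-fold lower. GAR1 and NOP10, which bind the same particles, were at -0.14 and 0.00, and NOLC1, a chaperone of both classes, at 0.01. NOP56, the partner of NOP58, and DKC1, the pseudouridine synthase dyskerin, have only probe sets that the platform annotation lists together with small RNAs encoded in their introns. These shared sets were at 0.29 and 0.53 for NOP56, and for DKC1 the 3 shared sets ran from 0.18 to 0.48. They are not counted among the 36.

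In the maturation of the small subunit 8 of 13 members were above 0, where 45.1% of all measured genes were, and the median log2 difference was 0.11. This median was 0.03 with median scaling, 0.35 relative to the hybridisation spike-ins and 0.46 when each gene took its most different probe set. Most of these genes encode parts of the small subunit processome, the assembly that forms on the nascent transcript. UTP20, a large scaffold protein of the processome, had a signal of 1166 in spheroids and 812.4 in monolayer, 1.44-fold higher. WDR43, which acts early in transcription and processing, had 3567 in spheroids and 2575 in monolayer, 1.39-fold higher. BYSL, the human bystin, which stays on the particle on its way to the cytoplasm, had 1668 in spheroids and 1210 in monolayer, 1.38-fold higher. After POLR1A and NOP58 these are the largest upward differences among the members. DDX10, an RNA helicase, was at 0.32 and UTP14A, whose yeast relative activates the helicase that releases U3, at 0.27. UTP15, WDR75 and HEATR1, members of the subcomplex that binds the start of the transcript, were at 0.12, 0.11 and 0.07, and NOP14, another processome protein, at -0.05. Dimmer probe sets of UTP14A and UTP15 gave larger differences of 0.76 and 0.79.
On the lower side of this group RRP12, an export factor of the subunit, had a signal of 733.7 in spheroids and 937.8 in monolayer, 1.28-fold lower. Another probe set of RRP12 was at 0.00 and a dimmer one, under the floor in monolayer, at 0.55, so its direction depends on the probe set. UTP3, a processome protein whose yeast relative is Sas10, had 3312 in spheroids and 4193 in monolayer, 1.27-fold lower. PNO1, which guides the last cut at the end of the 18S RNA, had 2436 in spheroids and 3025 in monolayer, 1.24-fold lower, but its 2 other probe sets were at 0.04 and 0.53. UTP18, a processome protein that recruits the RNA exosome in yeast, was at -0.25, and at -0.60 by a dimmer probe set. By the brightest probe set of each gene, the differences in this group were within 0.41 except those of UTP20, WDR43 and BYSL. These lay just beyond it at 0.52, 0.47 and 0.46. Between probe sets of the members alone the SD was 0.30, and RRP12, UTP3, PNO1 and DDX10 lay beyond that as well.

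The factors of the large subunit stayed closest together, with 7 of 7 measured members within 0.41 and a median log2 difference of 0.05, or -0.02 with median scaling. NOP2, an RNA methyltransferase and a classical proliferation antigen, was at 0.25, and MRTO4, which holds the place of the ribosomal stalk, at 0.13. PES1 and WDR12, which form the PeBoW complex with BOP1, were at 0.05 and 0.23. BOP1 has only probe sets listed together with a microRNA gene, the brighter at -0.52 and the dimmer at 0.19. NOP16 and NIP7, assembly factors of the large subunit in yeast, were at -0.03 and -0.24, and RRP1B, which brings protein phosphatase to the nucleolus, at -0.22. GNL3, the gene of nucleostemin, was not analysed here because no probe set could be assigned to it.

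The group of nucleophosmin family proteins, nucleolin and the helicase DDX21 held the lowest difference of the whole list, and 2 of its 4 members were above 0. NPM3, a nucleoplasmin family chaperone that binds NPM1, had a signal of 1548 in spheroids and 2600 in monolayer, 1.68-fold lower. Its difference of -0.75 lay at the 7.14th percentile of all measured genes and rests on 1 probe set. NPM1 (nucleophosmin), the family member that carries ribosomal proteins and particles, was at 0.02, with its other sets at 0.08 and -0.21. NCL (nucleolin), an RNA-binding protein of the nascent precursor, was at -0.15. DDX21, an RNA helicase that links polymerase I transcription to processing, was at 0.34 by its brighter and 0.25 by its dimmer probe set.

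**Figure D2:**
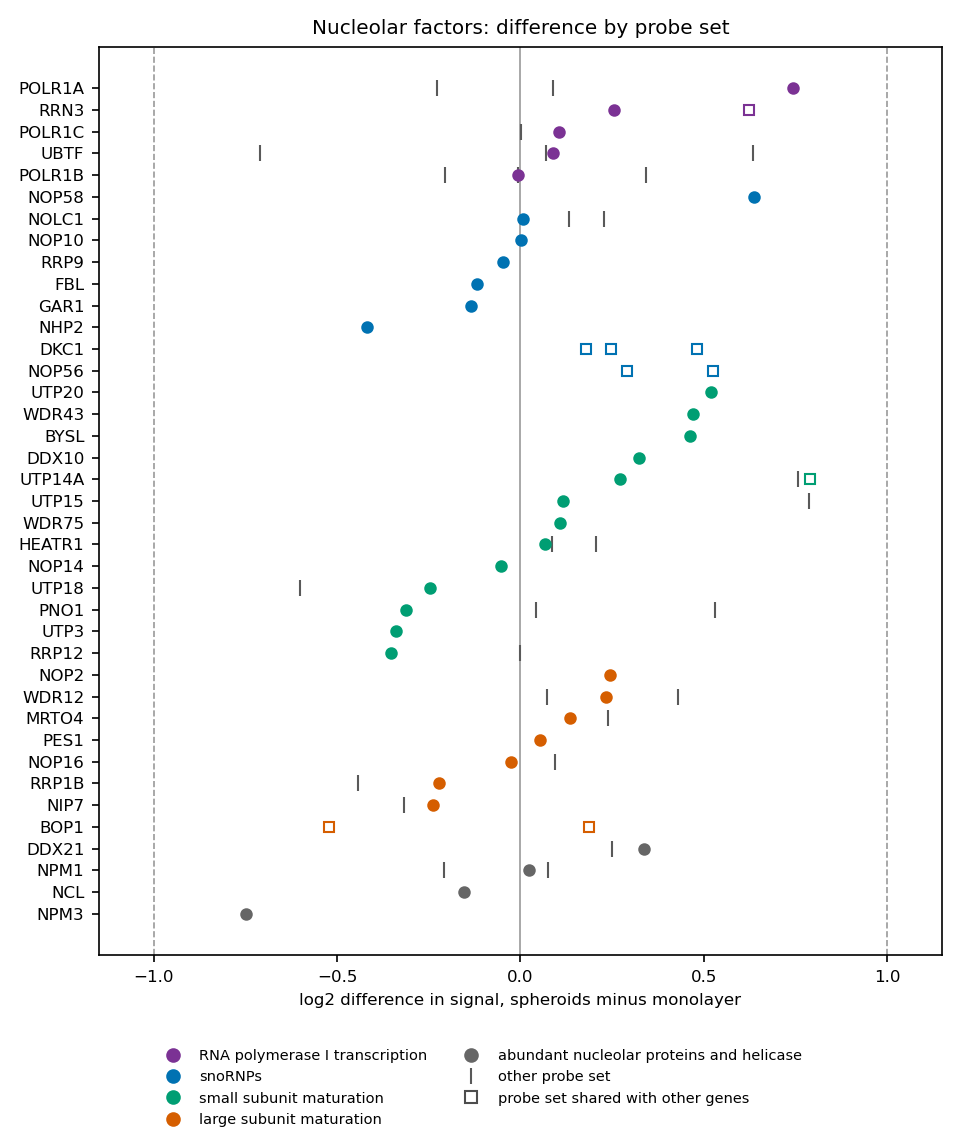
Log2 difference in signal, HT-29 spheroids minus monolayer, of each nucleolar factor (dots, colored by role), with its further probe sets where both arrays exceeded the floor (grey ticks) and probe sets that are listed with other genes as well (open squares). Dashed lines mark 2-fold, and no dot, tick or square reaches them.

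Probe sets show how far a single difference can be read. Of the 36 members 18 had 1 probe set above the floor on both arrays, and for these no second reading exists, NPM3, NOP58, NHP2, UTP20, WDR43 and BYSL among them. Of the other 18 the probe sets all pointed one way for 12 members and both ways for 6, namely NOP16, NPM1, PNO1, POLR1A, POLR1B and UBTF. The SD between probe sets of a member was 0.30. Of 64 member probe sets that exceeded the floor in spheroids and in monolayer, 0 differed by 2-fold or more. The share over all probe sets was not computed, and of all measured genes only 2.53% were 2-fold higher and 3.14% lower. This count therefore does not set the members apart. NPM1 has many processed pseudogenes, and RRN3 shares sequence with pseudogenes that 2 further probe sets are listed with, so signals of these genes may hold more than 1 transcript.

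The rest of the ribosome biogenesis machinery gave similar values in HT-29 spheroids and monolayer. Over 113 measured genes of 5 further lists the median log2 difference was 0.00. Past 2-fold were 1 gene upward and 0 downward, where 2.53% and 3.14% of all measured genes were. The gene past 2-fold was TAF1D, a subunit of the SL1 complex that starts RNA polymerase I transcription, with a signal of 2422 in spheroids and 931.2 in monolayer, 2.60-fold higher, by 1 probe set. The other measured partners of polymerase I (10 with TAF1D) had a median of -0.07, and TTF1 and TAF1B were at 0.24 and -0.23. Where 45.1% of all measured genes were above 0, 3 of the 11 genes of snoRNP assembly were. Their median was -0.04, and 8 were under 0. Among them were RUVBL2 and RUVBL1, the paired ATPases of the assembly machinery, at -0.62 and -0.58, and SNU13, a protein of box C/D and U3 particles, at -0.38. A second bright probe set of RUVBL2 was at -0.64, but dim probe sets of RUVBL2 and SNU13, both under the floor in monolayer, were at 0.96 and 1.38, opposite to the brighter ones. In the maturation of the small subunit 39 further genes had a median of 0.05, with KRR1 at 0.72 and RRP8 and RRP7A at -0.79 and -0.72. A second bright probe set of KRR1 was at 0.74, and its dimmer ones ran from -0.68 to 0.99. Other probe sets of RRP7A were at 0.27 and -0.18. In that of the large subunit 40 further genes had a median of 0.05. BRIX1, which joins the early precursor, had a signal of 1496 in spheroids and 764.9 in monolayer, 1.96-fold higher, and NVL and DDX31, an ATPase and a helicase, were at 0.91 and 0.79, although dimmer probe sets of DDX31 were at 0.09 and -0.31. The RNA exosome, which trims the precursors, had a median of -0.07 over 13 genes, with EXOSC10 at 0.58, EXOSC5 at -0.45 and EXOSC7 at -0.42, where a dimmer probe set of EXOSC7 was at -0.06.

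Genes with related work stood close by. The cytosolic ribosomal proteins had a median log2 difference of -0.08 over 58 genes, or 0.17 relative to the hybridisation spike-ins. Of these 15 were above 0, a share of 25.9% compared to 58.3% of the nucleolar factors and 45.1% of all measured genes. The share of the nucleolar factors was 44.4% with median scaling and 86.1% relative to the spike-ins. Most ribosomal protein genes, 93.1%, lay within the 0.41 between probe sets. The 32 genes of DNA replication, which also follow proliferation, had a median of 0.06 with 19 above 0, and RFC1, PRIM2 and POLA2 were at 0.57, -0.54 and 0.54. The other probe sets of RFC1 and POLA2 were at 0.10 and -0.10, so these 2 values were not repeated within the gene. Of the genes of these 2 lists 0 passed 2-fold in either direction, where 2.53% of all measured genes did upward and 3.14% downward. The median of each of the 7 further lists changed sign under median scaling or under scaling to the spike-ins. Differences between the lists were not tested.

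**Figure D3:**
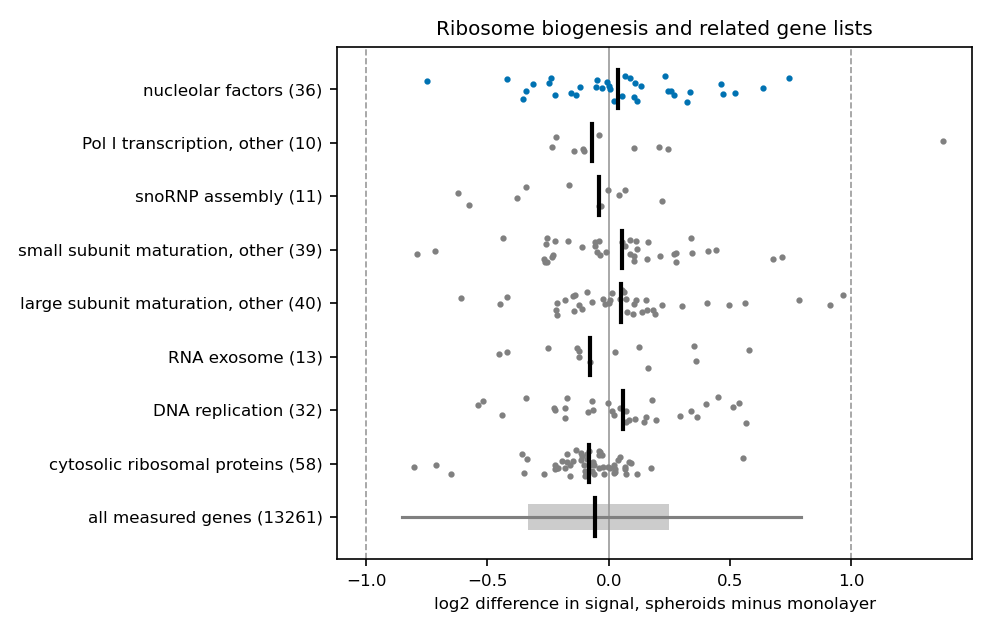
Log2 difference in signal, HT-29 spheroids minus monolayer, for each measured gene (dots) of the nucleolar factors and related lists, with the number of genes in parentheses, the list's median (black bar), and for all measured genes the quartiles (grey box) with a line between the 5th and 95th percentiles. Dashed lines mark 2-fold, and TAF1D is the only dot beyond them.

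The median of the nucleolar factors moved with the processing. It ran from -0.038 with scaling to the median signal to 0.28 with scaling to the hybridisation spike-ins, which moved the median of all measured genes from -0.05 to 0.18. The members' median exceeded that of all measured genes by 0.09 as reported, and by 0.08 to 0.21 under 11 alternative settings. Scaling to the median, to GAPDH or to the spike-ins moves the genes of an array alike apart from the floor, so these settings say little about that gap, which was largest when each gene took its most different probe set. In each of these settings 0 members passed 2-fold in either direction, with POLR1A nearest to it at 0.99 relative to the hybridisation spike-ins. The background changed with the setting. With the most different probe set 791 of 13261 measured genes were 2-fold higher and 716 lower. Relative to the hybridisation spike-ins 751 of 13696 were higher and 221 lower. Whether the count of 0 sets the members apart was not tested. The 18 probe sets of these spike-ins had a mean log2 difference of -0.25. The 27 labelling spike-in probe sets had -0.36, and scaling to them, which would raise all spheroid values further, was not tried. Of the 36 members 18 kept the sign of their difference under all the settings that measured them, and 18 did not. POLR1A, NOP58, UTP20, WDR43 and BYSL were above 0 and NPM3, NHP2 and UTP3 under 0 throughout. Apart from POLR1A these have 1 probe set each, well above the floors. Settings of the floor or the probe set could hardly change their values, so a kept sign says little. POLR1A has a probe set at -0.23 that no setting used alone.

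**Figure D4:**
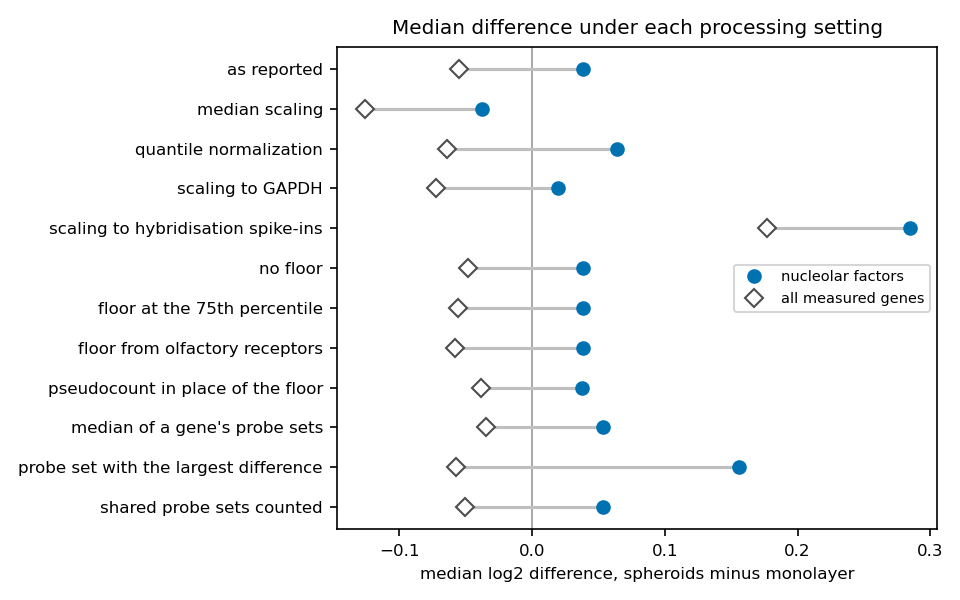
Median log2 difference in signal, HT-29 spheroids minus monolayer, of the nucleolar factors (filled dots) and of all measured genes (open diamonds) under each processing setting. The dot lies to the right of the diamond in every row, by 0.08 to 0.21, and scaling to the spike-ins moves both to the right.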

How the data were processed

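Total RNA of HT-29 spheroids and monolayer was hybridised to Affymetrix human genome arrays, 1 per condition. The deposited values are intensity signals on a linear scale that the authors computed with MAS5 in Affymetrix Expression Console, scaled to equal trimmed means (computed here with 2% trimmed at each end). The number of arrays limits the precision, and the methods mention duplicates that are not analysed here. Of 54675 probe sets 41097 are listed with 1 gene, 1801 with several and 11777 are unnamed here, and for 41043 of the first the symbol was updated through RefSeq (GRCh38.p14). The tools were pandas 2.3.3 and numpy 2.4.6 under Python 3.11.15, with matplotlib 3.10.9 for plots, and the computation was tested on simulated data. The 2-fold threshold is that of the methods. Members, role groups, further lists, settings and the comparison with bright genes were chosen with earlier results of these data known. Differences are given for every measured member, both signals for the 5 largest in each direction, and up to 3 genes of each further list are named, none of the ribosomal proteins.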

Additional observations from a re-analysis of the deposited data

How the results depend on the processing

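The median log2 difference over the members, 0.04 as reported, was -0.038 with median scaling, 0.28 with scaling to the hybridisation spike-ins and 0.16 when each gene took its most different probe set. The causes were not tested. Members with a difference under 0 numbered 15 as reported and 5 relative to the spike-ins. At 1.5-fold 2 members were higher and 1 lower, where 9.6% and 11.7% of all measured genes were. At 3-fold 0 and 0 were, and the share of all genes was not computed there. Of 394 values of single members under the alternatives 388 lay within 0.41 of the reported one, and the 6 beyond it came with another choice of probe set. The scalings moved each member by less than 0.41, and the floors hardly changed these bright signals. Most of the 388 could thus not have fallen beyond it, and their number says little about stability. POLR1A and RRP9 gave no value with the floor at the 75th percentile, 386.0, and counting shared probe sets brought 39 members into the list with a median of 0.05. No paired analysis was possible because each condition has 1 array.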
